A study of Mus musculus with 9 samples.

Results

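Clpx and the proteases and chaperones that work beside it in mitochondria were examined in mouse liver as a set of 10 genes: Clpx, Clpp, Lonp1, Lonp2, Hspd1, Hspe1, Hspa9, Afg3l2, Yme1l1 and Trap1. The members were given by symbol, and Clpx leads the set because its signal was already known to be higher under insulin, so its difference between insulin-treated and untreated mice is a description and not a test. Its differences from Normal mice share arrays with that contrast and are a description too. Probes were assigned to members by their RefSeq transcript, which gave 12 probes, 3 for Hspe1 and 1 for each other member. All 10 genes and all 12 probes were measured well above background on all 9 arrays, out of 20972 named genes of which 13389 had a tested probe.

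Liver RNA came from 9 male mice aged 20 weeks, 3 in each of 3 groups, with 1 Agilent expression array per mouse. STAM mice are a model of diabetes with steatohepatitis and liver tumors, made by injecting newborn C57BL/6J males with streptozotocin, a toxin of the insulin-secreting cells, and then feeding them a high-fat diet. The STAM-NON group received no insulin, the STAM-INS group received the long-acting insulin glargine under the skin, and the Normal group were lean mice given neither streptozotocin nor, per the study's methods, the high-fat diet. STAM and Normal mice therefore differed in toxin, diet and disease together. Each value, called centred log2 signal below, is the log2 of a probe's background-subtracted signal from which the array's own 75th percentile was taken off, and levels are not compared between probes.

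Mitochondria fold and remove their own proteins. Clpx is a ring-shaped unfoldase that threads proteins into the Clpp peptidase of the mitochondrial matrix. Among the proteins it acts on is Alas1, the first enzyme of heme synthesis. Lonp1 is the other main matrix protease, Afg3l2 and Yme1l1 are proteases of the inner membrane, Hspd1 and its lid Hspe1 form the folding chamber of the matrix, Hspa9 pulls proteins in during import and folds them, and Trap1 is the mitochondrial member of the Hsp90 family. Lonp2 is the peroxisomal relative of Lonp1. Stress in the matrix can raise nuclear genes for these proteins, and hepatocytes are rich in both organelles.

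Expression of Clpx was highest in every STAM-INS mouse. Its centred log2 signal was 3.56, 3.47 and 3.29 in the STAM-NON mice, 4.82, 4.90 and 4.76 in the STAM-INS mice, and 3.83, 3.80 and 3.86 in the Normal mice. The 3 groups did not overlap, with STAM-NON lowest, Normal between and STAM-INS highest. The group means were 3.44 ± 0.14, 4.83 ± 0.07 and 3.83 ± 0.03 (SD, n = 3 each), in the order STAM-NON, STAM-INS and Normal. STAM-INS exceeded STAM-NON by 1.39 on the log2 scale (standard error 0.11), a 2.61-fold difference, and exceeded Normal by 0.998, while STAM-NON was 0.39 below Normal. Before centring, the processed signal of the Clpx probe ran from 2666 to 3542 over the STAM-NON mice, from 6724 to 7624 over the STAM-INS mice, and from 3260 to 3502 over the Normal mice, so the STAM-NON and Normal ranges overlapped on this scale and STAM-INS stood above both.

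The Clpx difference between the STAM groups lay between 1.23 and 1.45 on the log2 scale in all 23 alternative settings. The STAM-INS array that shared a slide row with all 3 STAM-NON arrays was 1.38 above their mean, and the STAM-INS arrays of the other row were 1.39 above it. Clpx lies on chromosome 9 at chr9:65294251-65330658 (RefSeq annotation of GRCm38.p6). The bases just upstream of its annotated start, chr9:65294010-65294250 on the plus strand, are shown because Clpx was the member whose STAM groups did not overlap.

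Clpx: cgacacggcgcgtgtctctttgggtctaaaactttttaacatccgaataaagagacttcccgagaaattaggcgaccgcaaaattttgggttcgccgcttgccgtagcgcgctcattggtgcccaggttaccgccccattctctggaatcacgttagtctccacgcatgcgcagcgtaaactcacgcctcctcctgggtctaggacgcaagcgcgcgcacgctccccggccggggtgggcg

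None of the 8 motifs searched on both strands matched in the Clpx window, so no base is in capitals. They were the E-box CACGTG (in 7.15% of the 32851 RefSeq promoter windows of 300 bases), the D-box TTATGTAA (0.938%), the palindrome TTACGTAA bound by Nfil3 and its relatives (0.119%), the heat shock elements GAANNTTC (7.86%) and TTCNNGAA (8.52%), the composite core TGATGNAA of Atf4 and Ddit3 (3.97%), the ETS core CCGGAAG (8.86%) and the forkhead site TGTTTAC (3.65%). The absence of a match says only that these letters are not in this window.

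**Figure D1:**
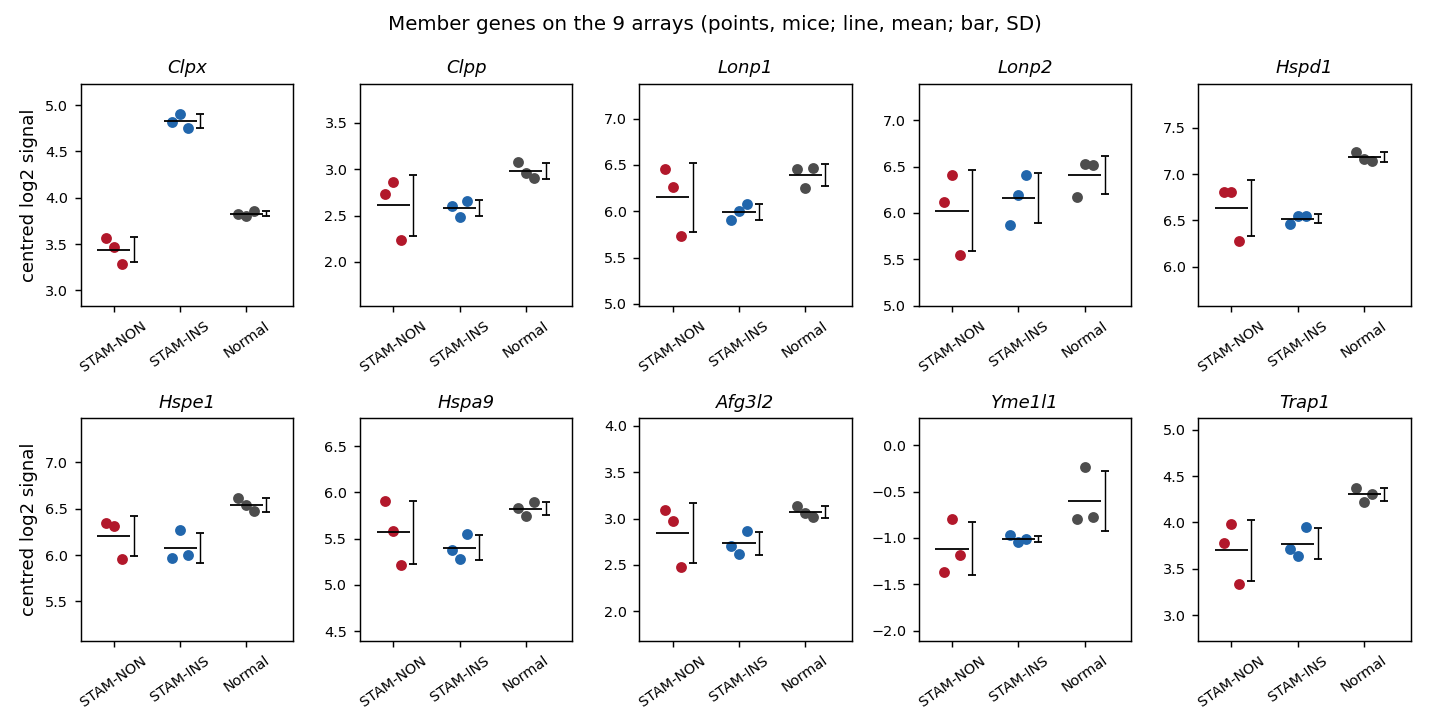
Centred log2 signal (vertical axis) of the 10 member genes on the 9 arrays, 1 panel per gene, with points for mice, lines for group means and bars for 1 SD (n = 3). Every panel spans the same height; the 3 Clpx groups are separate with STAM-INS at 4.76 to 4.90, whereas in the other panels the STAM-INS points overlap those of STAM-NON.

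The other members did not share the Clpx pattern in level. In STAM-INS against STAM-NON, 1 of 12 member probes passed the threshold, the Clpx probe, where 0.0913% of all 26289 tested probes passed. Nothing is read from that count, since Clpx was chosen on this contrast. The groups overlapped for the 11 other probes, while 12.1% of all probes did not overlap (7.23% with STAM-INS higher, as for Clpx). At an unadjusted p under 0.05, none of these 11 passed by limma, where 2308 of all 26289 tested probes did. At that level none of the 9 other genes passed by the methods' t-test. Differences of the 9 other genes ran from -0.16 (Lonp1 and Hspa9) to 0.14 (Lonp2), with a median of -0.11, and the median over all tested probes was 0.03.

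Clpp, the peptidase partner of Clpx, had 2.73, 2.86 and 2.24 in the STAM-NON mice, 2.602, 2.49 and 2.66 in the STAM-INS mice, and 3.08, 2.96 and 2.91 in the Normal mice. Its STAM-INS values fell inside the STAM-NON range, and its difference was -0.03 with a 95% interval from -0.40 to 0.35. The interval of the Clpx difference ran from 1.14 to 1.64, which is a description only, since Clpx was chosen on this contrast. Among the 9 other genes the highest upper bound was 0.68, for Lonp2.

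**Figure D2:**
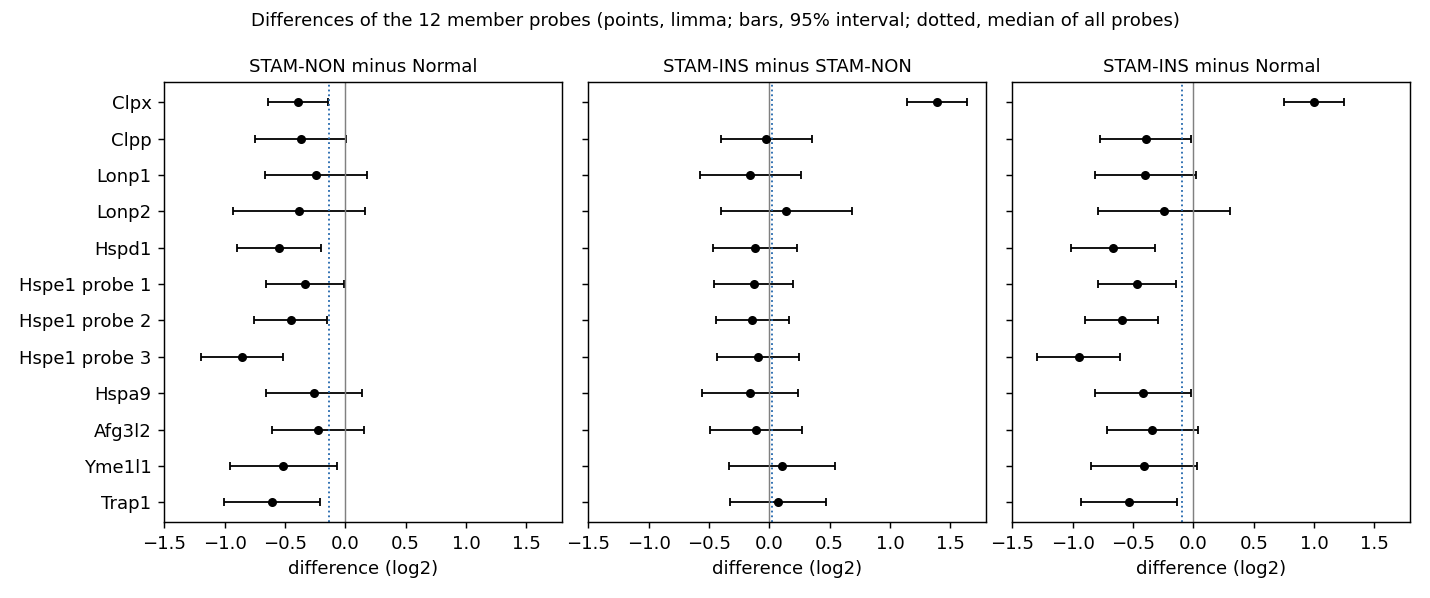
Difference between groups on the log2 scale (horizontal axis) for the 12 member probes in the 3 comparisons, with limma 95% intervals and, as a dotted line, the median of all tested probes (Hspe1 probes 1, 2 and 3 are A_66_P124952, A_55_P2089358 and A_55_P1953063). Clpx stands at 1.39 between the STAM groups and at 0.998 against Normal, and every probe lies below 0 in STAM-NON against Normal.

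STAM-NON mice were compared with Normal mice to see how the members stood in the untreated disease model. Of the 12 member probes, 4 passed the threshold and all 4 were lower in STAM-NON (the probes of Clpx, Hspd1 and Trap1 and 1 of the 3 of Hspe1), where 16.1% of all tested probes passed and 9.76% passed as lower. All STAM-NON arrays lay in 1 row of a slide and all Normal arrays in the other row of another slide, and with the row as a block, estimated from the STAM-INS arrays of both rows, 0 of 12 member probes and 15 of all tested probes passed in this comparison. With that block the differences were -0.38 for Clpx, -0.47 for Hspd1 and -0.52 for Trap1. The Clpx values here are a description, since the STAM-NON arrays were part of the contrast it was chosen on. All 12 differences were below 0, as were 16612 of the 26289 over all tested probes. The groups did not overlap, with STAM-NON lower, for 7 of 12 member probes and for 28.1% of all probes. The median difference was -0.39 over the member probes and -0.13 over all tested probes. Across 6 ways of scaling or background-correcting the arrays, the median of the members stayed between 0.15 and 0.26 below that of all probes, although the latter itself moved from -0.29 to 0.14.

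The chaperonin pair was lower in both STAM groups than in Normal. Hspd1 had 6.81, 6.80 and 6.28 in STAM-NON, 6.46, 6.54 and 6.55 in STAM-INS, and 7.24, 7.16 and 7.14 in Normal. Every Normal mouse was above every STAM mouse. Hspd1 fell by 0.55 in STAM-NON against Normal (limma adjusted p = 0.0446) and by 0.67 in STAM-INS against Normal (limma adjusted p = 0.0272), and between the STAM groups the difference was -0.12. The 2 comparisons share the Normal mice.

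Hspe1, the lid of the chamber, was measured by 3 probes that agreed in direction and differed in size. The probe A_55_P1953063 had 3.10, 3.23 and 2.68 in STAM-NON, 2.85, 2.92 and 2.96 in STAM-INS, and 3.95, 3.85 and 3.79 in Normal. By this probe Hspe1 fell by 0.86 in STAM-NON (limma adjusted p = 0.0140) and by 0.95 in STAM-INS (limma adjusted p = 0.00782) against Normal. The probe A_55_P2089358 differed by -0.45 in STAM-NON (limma adjusted p = 0.0511) and fell by 0.59 in STAM-INS (limma adjusted p = 0.0251). The probe A_66_P124952, which stands for the gene where 1 probe is used, differed by -0.33 (limma adjusted p = 0.130) and -0.46 (limma adjusted p = 0.0631). For all 3 probes every Normal value was above every STAM value.

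Hspd1 and Hspe1 are neighbors on chromosome 1 and are transcribed away from each other. The annotated start of Hspe1 on the plus strand lies 216 bases from 1 annotated start of Hspd1 on the minus strand, and a second Hspd1 start lies 95 bases inside Hspe1. The stretch chr1:55088053-55088082 (GRCm38.p6, plus strand) between the first pair of starts is shown because both genes were lower in the STAM groups and share it.

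Hspe1 and Hspd1: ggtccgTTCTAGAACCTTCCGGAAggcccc

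Capitals mark a run of 3 overlapping matches to the heat shock elements, TTCNNGAA at -89 and -79 and GAANNTTC at -84 from the Hspe1 start, the pattern bound by heat shock factors. The run also overlaps the ETS core CCGGAAG. Of the 10 members, 8 had a RefSeq promoter window here, and outside this shared stretch a heat shock element was found only in that of Clpp, after its start. A match of letters describes the sequence and does not show binding.

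Trap1 had 3.78, 3.98 and 3.33 in STAM-NON, 3.72, 3.64 and 3.96 in STAM-INS, and 4.38, 4.23 and 4.31 in Normal. All STAM values lay below all Normal values. Trap1 fell by 0.60 in STAM-NON (limma adjusted p = 0.0493), and the STAM-INS difference was -0.53 (limma adjusted p = 0.0757). Hspa9, the import motor and chaperone, ranged from 5.22 to 5.91 in STAM-NON, from 5.28 to 5.55 in STAM-INS, and from 5.75 to 5.89 in Normal. Its STAM-NON values spread across the Normal range, with differences of -0.26 (limma adjusted p = 0.314) in STAM-NON and -0.42 (limma adjusted p = 0.136) in STAM-INS.

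The proteases other than Clpx had adjusted p-values above the threshold against Normal. Clpp differed by -0.37 in STAM-NON (limma adjusted p = 0.145) and by -0.40 in STAM-INS (limma adjusted p = 0.138), with no overlap with Normal in either. Lonp1 ranged from 5.73 to 6.45 in STAM-NON, from 5.90 to 6.07 in STAM-INS and from 6.25 to 6.46 in Normal. Its differences from Normal were -0.24 (limma adjusted p = 0.367) and -0.40 (limma adjusted p = 0.172). Only the STAM-INS values of Lonp1 lay wholly below Normal.

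The inner membrane proteases had similar values. Afg3l2 ranged from 2.48 to 3.09 in STAM-NON, from 2.62 to 2.87 in STAM-INS and from 3.01 to 3.14 in Normal, with differences of -0.23 (limma adjusted p = 0.353) and -0.34 (limma adjusted p = 0.196). Yme1l1 ranged from -1.36 to -0.80 in STAM-NON, from -1.05 to -0.97 in STAM-INS and from -0.80 to -0.23 in Normal, with differences of -0.51 (limma adjusted p = 0.0983) and -0.41 (limma adjusted p = 0.182). The STAM-NON differences of Lonp1, Hspa9 and Afg3l2 turned to between 0.016 and 0.047 with centring on the E1A spike-in RNA, and those of Lonp1 and Hspa9 to 0.037 and 0.0064 with quantile normalization.

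Lonp2, the peroxisomal protease, overlapped between all groups. It had 6.11, 6.41 and 5.55 in STAM-NON, 5.87, 6.20 and 6.41 in STAM-INS, and 6.17, 6.53 and 6.52 in Normal. Its differences from Normal were -0.38 (limma adjusted p = 0.274) in STAM-NON and -0.24 (limma adjusted p = 0.502) in STAM-INS.

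In STAM-INS against Normal, 4 of 12 member probes passed, Clpx as higher and Hspd1 with 2 Hspe1 probes as lower, where 13.9% of all tested probes passed, 5.15% as higher and 8.72% as lower. With the row as a block 2 member probes passed here, and Hspd1 differed by -0.64 (limma adjusted p = 0.0710). STAM-INS lay wholly below Normal for 10 of 12 member probes and for 29% of all probes, and wholly above it for Clpx and for 15.1% of all probes. The member median was -0.41 and that of all tested probes -0.09. Clpx was the member with the opposite sign in this comparison. Its call here is a description, since the STAM-INS arrays were part of the contrast it was chosen on.

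Within STAM-NON, replicate 3 had the lowest value of its group for 11 of the 12 member probes, Yme1l1 being the exception. The SD over the 3 STAM-NON mice had a median of 0.31 over member probes and 0.23 over all tested probes. In STAM-INS these medians were 0.09 and 0.18, and in Normal 0.08 and 0.16. Without STAM-NON replicate 3, the STAM-NON difference from Normal was -0.38 for Hspd1 and -0.42 for Trap1, and neither passed the threshold. The Clpx call in this comparison was lost without any 1 of the 9 arrays, while its difference stayed between -0.45 and -0.31. The calls of Hspd1 and Trap1 were also lost without any 1 of 7 other arrays, each left out alone, and held only without STAM-NON replicate 2, with limma adjusted p-values from 0.0426 to 0.120 for Hspd1 and from 0.0314 to 0.131 for Trap1. The calls of Hspd1 and of the Hspe1 probe A_55_P2089358 in STAM-INS against Normal were lost without any 1 STAM-INS or Normal array (limma adjusted p up to 0.0864 and 0.0820), with differences from -0.69 to -0.64 and from -0.66 to -0.56, whereas that of the Hspe1 probe A_55_P1953063 held without each array in both comparisons.

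The arrays were checked before the members were read. Spots well above background made up 59.3%, 63.1% and 65.02% of the non-control spots on STAM-NON replicates 1 and 3 and STAM-INS replicate 1, and 46.2% to 51.1% on the other 6 arrays. Without those 3 arrays only STAM-NON replicate 2 was left in its group, and it was assumed to vary like the other groups. Clpx was 1.36 higher in the 2 remaining STAM-INS mice than in this mouse, and no member probe passed in STAM-NON against Normal. All STAM arrays lay on 1 slide and all Normal arrays on another, so slide and group cannot be told apart in both comparisons with Normal, and row also separates STAM-NON from Normal. The mean level of 10 hepatocyte markers ranged over 8.23 to 8.57 in STAM-NON mice, 8.51 to 8.64 in STAM-INS mice and 8.72 to 8.80 in Normal mice. For 7 macrophage markers the ranges were 2.26 to 3.24, 2.41 to 3.41 and 1.36 to 2.11, in the same order. Of these lists, 1 of 10 hepatocyte markers fell and 3 of 7 macrophage markers rose in each comparison with Normal, and none passed between the STAM groups. Biliary markers (4 tested) rose in 3 genes in STAM-NON and 1 in STAM-INS, of 8 stellate cell and 4 lymphocyte markers none passed (5 and 1 had an unadjusted limma p under 0.05 in STAM-NON against Normal), and of endothelial markers only Lyve1 did, as higher in STAM-NON. Over all tested probes, 9401 of 26289 had an unadjusted limma p under 0.05 in STAM-NON against Normal. The pancreas markers Cpa1, Cpb1 and Pnlip and the adipose marker Lep were above background on no array. Other untested markers were above it on some. These were Adipoq and Retn on STAM-NON replicates 1 and 3 and STAM-INS replicate 1, and Plin1 on STAM-NON replicate 1. Cela2a was above it on STAM-NON replicate 3 and STAM-INS replicates 1 and 2, and Prss2 on STAM-INS replicate 3 and Normal replicate 3. Of the 2 tested pancreas markers, Cela1 rose by 2.63 in STAM-NON and 1.94 in STAM-INS against Normal, and Ctrb1 fell by 0.78 in STAM-NON and differed by -0.61 in STAM-INS (limma adjusted p = 0.0180, 0.0425, 0.0254 and 0.0517). Of the 2 tested adipose markers, Fabp4 rose by 2.85 in STAM-NON (limma adjusted p = 0.0344) and differed by 1.70 in STAM-INS (limma adjusted p = 0.142), and Cfd differed by 1.43 and 0.28 with overlap. None of these 4 passed between the STAM groups. The part of cell make-up in the member differences was not tested, and in bulk liver fewer cells of a type and less RNA per cell cannot be told apart.

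Other genes of the same pathways were read as lists, with 1 probe per gene. Of their 123 tested genes, 1 passed between the STAM groups, the peroxisomal Hacl1 (5 had an unadjusted limma p under 0.05, and by the methods' t-test 3 did and none passed after adjustment). Over all tested probes, 2308 of 26289 had an unadjusted limma p under 0.05 between the STAM groups. In STAM-NON against Normal 23 of the 123 passed by limma and in STAM-INS 13, where 16.1% and 13.9% of all tested probes passed. By limma the lists therefore stood near that share in the first comparison and below it in the second. By the methods' t-test after adjustment, 0 of the 123 passed in STAM-NON and 24 in STAM-INS, so these counts depend on the test. Under that test the share of the lists in STAM-INS lay above that of all tested probes, unlike by limma. The counts over all tested probes under that test are given in the last section. The 5 lists of mitochondrial structure and upkeep had medians from -0.32 to -0.28 in STAM-NON and from -0.38 to -0.21 in STAM-INS against Normal, which under the other scalings lay between -0.55 and -0.0049. Lower medians were not particular to them. In the same order they were -0.44 and -0.42 for peroxisomal genes, -0.28 and -0.27 for heme genes, and -0.31 and -0.20 for hepatocyte markers. In the stress response list the called genes all rose.

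Of 14 other mitochondrial proteases, none rose and 2 fell in STAM-NON against Normal, and none passed in STAM-INS (4 with an unadjusted limma p under 0.05, and 3 after adjustment by the methods' t-test). Over all tested probes, 8532 of 26289 had an unadjusted limma p under 0.05 in STAM-INS against Normal. Immp1l, a peptidase that trims imported proteins, fell by 0.47 (limma adjusted p = 0.0306), and Lactb, a serine protease-like protein of the intermembrane space, fell by 0.73 (limma adjusted p = 0.0320). The median of the list was -0.30 in STAM-NON and -0.37 in STAM-INS against Normal, and -0.11 between the STAM groups. Of 12 other chaperones and scaffolds, only Dnajc19, a co-chaperone of the import motor, passed. It had 4.82, 5.27 and 5.005 in STAM-NON, 4.79, 4.75 and 4.42 in STAM-INS, and 5.97, 5.84 and 5.96 in Normal, and it fell by 0.89 (limma adjusted p = 0.0134) and 1.27 (limma adjusted p = 0.00338) against Normal.

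Of 17 import genes, 3 fell in STAM-NON and 1 of them also in STAM-INS. Timm8a1, a small carrier of the intermembrane space, fell by 0.51 (limma adjusted p = 0.0309) and by 0.77 (limma adjusted p = 0.00893). Timm21 fell by 0.53 and the receptor Tomm70a by 0.43 in STAM-NON (limma adjusted p = 0.0361 and 0.0383). The list medians were -0.30 and -0.32 against Normal. Of 16 genes for enzymes and complexes that mark mitochondrial content, 1 fell in STAM-NON, Etfa, an electron carrier of fat oxidation (by 0.59, limma adjusted p = 0.0285). None passed by limma in STAM-INS. There 11 of the 16 had an unadjusted limma p under 0.05, as had 8532 of all 26289 tested probes. After adjustment by the methods' t-test 7 passed there. The list medians were -0.32 and -0.36.

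Of 13 genes of mitochondrial DNA and biogenesis, 4 fell in each comparison with Normal. Ppargc1b, a coactivator of mitochondrial genes, had -0.90, -0.95 and -1.63 in STAM-NON, -1.78, -2.005 and -1.87 in STAM-INS, and -0.54, -0.46 and -0.27 in Normal. It was lowest in the STAM-INS mice, with no overlap between groups, and fell by 0.73 (limma adjusted p = 0.0419) and 1.46 (limma adjusted p = 0.00474) against Normal, while the difference between the STAM groups was -0.73 (limma adjusted p = 0.428). Polg2, the accessory subunit of the mitochondrial DNA polymerase, fell by 0.69 and 0.98 (limma adjusted p = 0.0447 and 0.0162), and its catalytic subunit Polg fell by 0.56 in STAM-NON (limma adjusted p = 0.0344). Gabpa, a factor of the ETS family, fell by 0.67 and 0.44 (limma adjusted p = 0.0127 and 0.0378).

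The stress response list holds 14 regulators and targets of the response to mitochondrial and amino acid stress. In STAM-NON against Normal 6 rose and none fell, where 1655 of all 26289 tested probes passed as higher. In STAM-INS 5 rose and none fell, where 1355 of 26289 passed as higher. The list medians were 0.52 and 0.22, beside -0.13 and -0.09 over all tested probes. Between the STAM groups none passed and the median was -0.23. Asns, which makes asparagine, had 1.58, 1.74 and 2.15 in STAM-NON, 2.95, 1.35 and 1.98 in STAM-INS, and -0.81, -0.63 and -0.70 in Normal. It rose by 2.54 (limma adjusted p = 0.00818) and 2.81 (limma adjusted p = 0.00381). Fgf21, a hormone released by the stressed or fasting liver, rose by 3.07 (limma adjusted p = 0.0125) and 3.40 (limma adjusted p = 0.00676).

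Psat1 of serine synthesis and Mthfd2 of mitochondrial one-carbon metabolism did not reach a level well above background in any Normal mouse. In STAM-NON Psat1 was at least 14.02-fold higher than in Normal, and in STAM-INS at least 8.72-fold (limma adjusted p = 0.00402 and 0.00387). Mthfd2 was at least 2.56-fold and 2.52-fold higher (limma adjusted p = 0.0216 and 0.0214), and with both genes at their bounds the list medians were the same. These bounds do not hold across the ways of scaling or background-correcting the arrays. There the log2 difference went down to 1.91 in STAM-NON and 1.38 in STAM-INS for Psat1, and to 0.43 and 0.42 for Mthfd2. The regulators Atf4, Cebpb and Hsf1 of this list did not pass in either comparison with Normal. Atf5, a factor of the mitochondrial unfolded protein response named here after its values were seen, rose by 1.19 and 1.56 (limma adjusted p = 0.00849 and 0.00262). The chaperone and protease members held to be targets of that response had differences below 0 in the same comparisons, apart from Clpx in STAM-INS. Several of these differences did not pass, and those of Lonp1 and Hspa9 in STAM-NON changed sign with the scaling. Of all 26289 tested probes, 16612 in STAM-NON and 15668 in STAM-INS were also below 0.

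**Figure D3:**
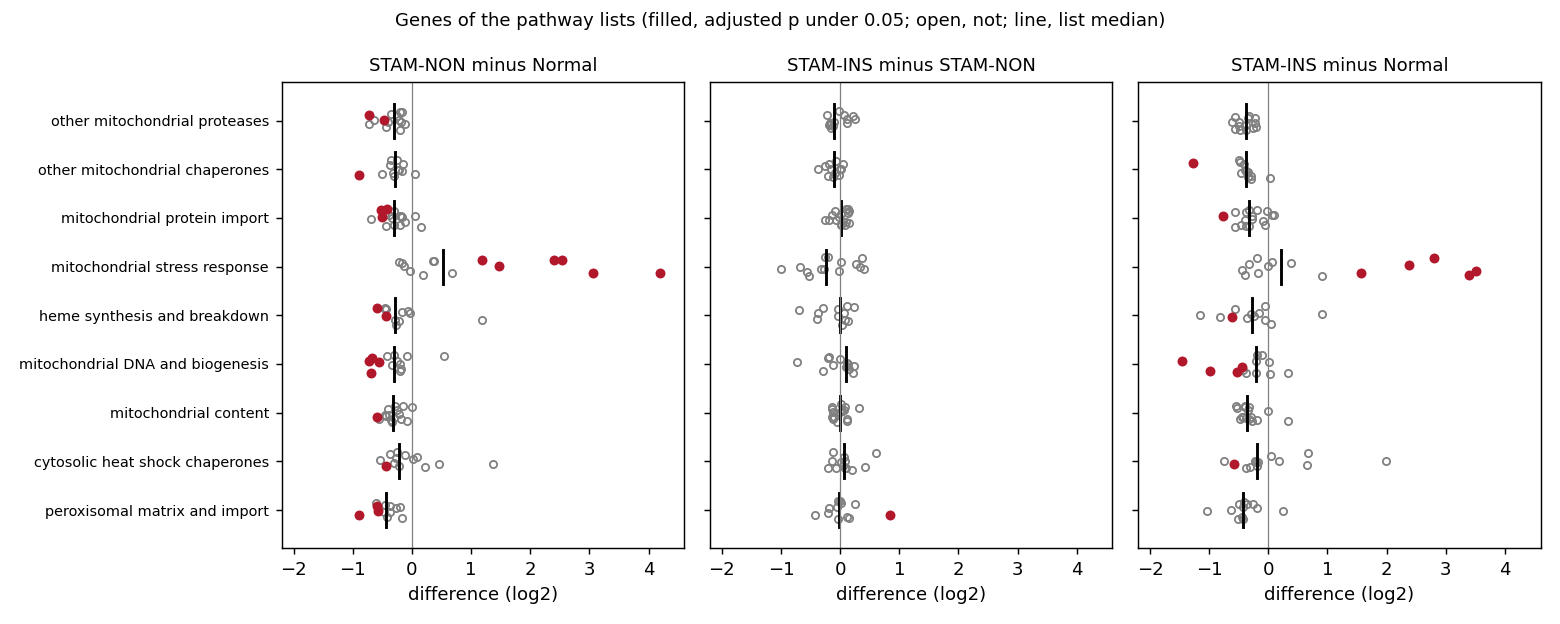
Difference between groups on the log2 scale (horizontal axis) for the tested genes of 9 pathway lists in the 3 comparisons, filled where the limma adjusted p was under 0.05, with a line at each list median. The stress response list reaches 4.20 in STAM-NON against Normal on the measured scale, while the called genes of the other lists lie below 0 against Normal.

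Because Clpx acts on Alas1, heme genes were read beside it. Of the genes of heme synthesis and breakdown, none passed between the STAM groups. None had an unadjusted limma p under 0.05 there, where 2308 of all 26289 tested probes did. Alad, the second enzyme of the pathway, fell by 0.59 in STAM-NON and 0.62 in STAM-INS against Normal (limma adjusted p = 0.0391 and 0.0352). Alas1 itself, named for its link to Clpx, differed by -0.46 in STAM-NON and -1.16 in STAM-INS from Normal and by -0.70 between the STAM groups, and none of the 3 passed (limma adjusted p = 0.336, 0.0502 and 0.583).

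Of 13 cytosolic heat shock chaperones, only Tcp1, a subunit of the cytosolic chaperonin, passed, falling by 0.45 (limma adjusted p = 0.0479) and 0.57 (limma adjusted p = 0.0249) against Normal. The list medians were -0.22 and -0.19. The peroxisomal list, the setting of Lonp2, had medians of -0.44 in STAM-NON and -0.42 in STAM-INS against Normal. Of its 12 genes, 3 fell in STAM-NON against Normal. Catalase (Cat) fell by 0.89, Pex6 of the import machinery by 0.58, and Hacl1, which shortens branched fatty acids, by 0.59 (limma adjusted p = 0.0419, 0.0451 and 0.0161). Hacl1 had 6.15, 6.19 and 6.06 in STAM-NON, 6.88, 6.91 and 7.14 in STAM-INS, and 6.74, 6.68 and 6.75 in Normal. It rose by 0.84 between the STAM groups (limma adjusted p = 0.0466), a call lost without any 1 of the 9 arrays, with adjusted p-values up to 0.214.

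Many of these list calls lay close to the threshold and were lost with 1 array fewer. The called genes named here kept the sign of their difference each time, as with Tomm70a (from -0.48 to -0.38 in STAM-NON against Normal) and Tcp1 (from -0.52 to -0.36). With each of the 9 arrays left out in turn, the calls of Asns, Fgf21, Psat1 and Atf5 held each time in both comparisons with Normal, those of Dnajc19, Timm8a1 and Ppargc1b each time in STAM-INS, and that of Gabpa each time in STAM-NON. In STAM-NON, Dnajc19 was lost only without Normal replicate 3 (limma adjusted p = 0.0502) and Hacl1 only without Normal replicates 1 or 3 (adjusted p up to 0.0584). In that comparison the calls of Immp1l, Lactb, Tomm70a, Timm21, Timm8a1, Etfa, Alad, Polg, Polg2, Ppargc1b, Tcp1, Cat and Pex6 were each lost without STAM-NON replicate 1 or 3 or any 1 Normal array, and some without a STAM-INS array, with adjusted p-values up to 0.130. In STAM-INS those of Alad, Polg2, Gabpa and Tcp1 were lost without Normal replicate 1 or 3, STAM-INS replicate 2 and, except for Polg2, other arrays (up to 0.133). Mthfd2 was lost in both comparisons without Normal replicate 2 or 3, without STAM-NON replicate 1 or 3 in STAM-NON, and without any 1 STAM-INS array in STAM-INS (up to 0.0800).

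The genes most like Clpx across the 9 arrays were ranked by the root mean square difference of their mean-centred values from those of Clpx, over 13385 genes. Nfil3, a transcriptional repressor of the circadian system, was nearest, at 0.241. It had 2.76, 2.95 and 2.72 in STAM-NON, 4.19, 4.42 and 4.04 in STAM-INS, and 3.25, 2.53 and 2.89 in Normal. As with Clpx, each STAM-INS mouse stood above all other mice, but Normal and STAM-NON overlapped for Nfil3. Its difference between the STAM groups was 1.41, beside 1.39 for Clpx.

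Next came Wdr89 at 0.302, Smagp at 0.302, Denn2b at 0.313, Gstm2, a glutathione transferase, at 0.314 and Tab2, an adaptor of cytokine signaling, at 0.325. In all 6 genes the STAM-INS values lay above those of STAM-NON, by 0.72 to 1.41. They were chosen for their likeness to Clpx on these arrays, so no test is given for them. The other members ranked from 6338 (Lonp2) to 10009 (Hspd1), with Clpp at 8052.

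**Figure D4:**
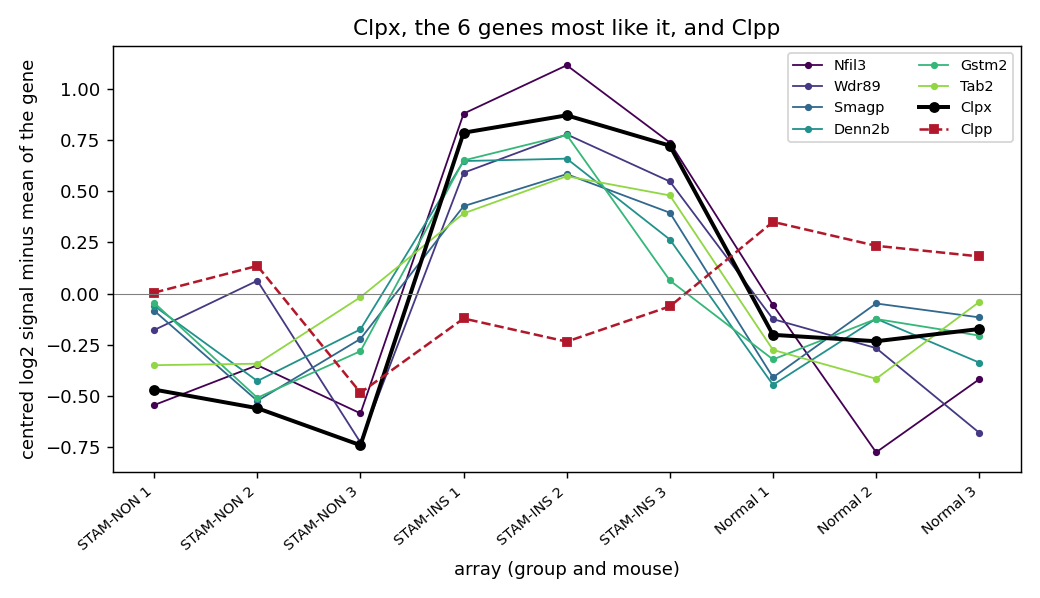
Centred log2 signal minus the mean of each gene (vertical axis) on the 9 arrays (horizontal axis, by group and mouse) for Clpx, the 6 genes most like it and Clpp. The lines of Clpx and Nfil3 rise in the STAM-INS mice by 1.39 and 1.41 over STAM-NON, and Clpp does not follow them.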

How the data were processed

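Liver RNA was labeled with Cy3 and hybridized to 1-color Agilent arrays, 1 per mouse (the labels and the study's methods name different RNA extraction kits). The authors deposited scanner output of Feature Extraction 11.5.1.1. Per the file headers, the intensity columns hold each spot's background-subtracted processed signal, its median signal and its local background on a linear scale, not normalized between arrays. The study's methods name no normalization or test for the arrays in particular. For differences between a pair of groups in general they name an unpaired t-test or a Mann-Whitney test. That t-test, run here with pooled variance on the centred values of the tested probes, is called the methods' t-test. The deposited flags, a score of 0 or 1 per spot, mark spots well above background, outliers and saturation.

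From log2 of the processed signal, each array's 75th percentile over non-control spots was subtracted. Outlier spots were left out and spots of 1 probe averaged. Probes were tested if at least 0.5 of their spots were well above background on all 3 arrays of 1 group (26289 of 55681). Groups and replicate numbers came from the labels. limma 3.58.1 (R 4.3.3; lmFit, eBayes, two-sided) was fitted to all 9 arrays with 6 residual degrees of freedom, with Benjamini-Hochberg adjustment over all tested probes and a threshold of 0.05. Intervals are 95% limma intervals. With 3 mice per group the number of arrays limits the precision. The code was tested on simulated data.

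Gene names came from RefSeq (GRCm38.p6), which named 27656 probes. The array design uses mm9, so RefSeq coordinates serve gene positions and promoters only. For a gene not above background in a group, a bound replaces each of its signals that lies under the lowest detected signal of that array by the latter. Members and lists were chosen with earlier results of these data known, and the promoter motifs after the values were seen. All members were named, up to 4 genes per list past the threshold in order of their largest difference (the 2 largest if none passed), and the 6 genes most like Clpx. Alternatives covered background correction, scaling, filter, samples, blocks, variance prior, test and leaving out arrays. The result of 1 list gene is not reported here.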

Additional observations from a re-analysis of the deposited data

Results flagged for a closer look

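Spots for the ERCC control RNAs lie outside the comparisons. Of 2772 such spots per array, 8.91% (STAM-NON replicate 1), 15.5% (STAM-NON replicate 3) and 18.1% (STAM-INS replicate 1) were well above background, while no Normal array exceeded 6.60%. These are also the arrays with the highest share of other spots above background, and without them Clpx was 1.36 higher in the 2 remaining STAM-INS mice than in the 1 remaining STAM-NON mouse.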

How the results depend on the processing

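Of 693 recomputed member differences, 577 kept their direction and side of the threshold, 74 lost a call, 19 gained one and 23 changed sign. Clpx stayed past the threshold against Normal in STAM-INS under all 23 alternatives. Between the STAM groups it did so under 16 of 23. Clpx was chosen on that contrast, which shares arrays with both comparisons with Normal, so all its calls are a description only. The STAM-NON difference of Clpx from Normal lost its call under 19, Hspd1 and Trap1 in that comparison under 18 each, and Hspd1 in STAM-INS against Normal under 12.

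Member probes past the threshold, against 4, 1 and 4 in STAM-NON against Normal, STAM-INS against STAM-NON and STAM-INS against Normal, were as follows. E1A centring gave 0, 0 and 1; median centring 1, 0 and 2; no filter 0, 0 and 1; the row block 0, 0 and 2. Fitting only the 2 groups compared gave 1, 0 and 9, the detected-probe percentile 1, 1 and 4, quantile normalization 1, 1 and 2, leaving out the 3 arrays with most spots above background, which leaves 1 STAM-NON array assumed to vary like the other groups, 0, 1 and 4, and the methods' t-test 0, 0 and 5 after Benjamini-Hochberg and 5, 1 and 10 unadjusted. The replicate block gave 1, 0 and 3, and replicate numbers did not pair the mice (correlations of deviations from -0.29 to 0.15). With each array left out in turn the counts were 1 to 3, 1 to 1 and 2 to 7.

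All tested probes past the threshold, against 4220, 24 and 3647, numbered 250, 7 and 571 without the filter, 15, 13 and 2157 with the row block, 2016, 6 and 1871 with the replicate block, 2180, 8 and 5194 with only 2 groups, 2881, 25 and 1973 with E1A centring, 4152, 6 and 3464 among probes above background on all arrays, 30, 1 and 2829 with the methods' t-test adjusted, 7536, 1498 and 8813 with it unadjusted, and 851, 568 and 3481 without the 3 arrays. Leaving out single arrays gave 940 to 5822, 10 to 105 and 1038 to 4326. By the adjusted methods' t-test, 0 of 123 list genes passed in STAM-NON against Normal, beside 30 of 26289 probes. In STAM-INS against Normal 24 of the 123 passed, beside 2829 probes. Among the 24 were 3 of 14 other mitochondrial proteases and 7 of 16 genes of mitochondrial content.

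In STAM-NON against Normal the sign turned for Lonp1 (0.037 with quantile normalization, 0.031 with E1A centring), Hspa9 (0.0064 and 0.016 likewise), Afg3l2 (0.047, E1A) and Lonp2 (0.048 with the row block, 0.0020 without the 3 arrays). Between the STAM groups it turned with E1A centring for Lonp2 (-0.013), Yme1l1 (-0.047) and Trap1 (-0.079), without the 3 arrays for Lonp2 (-0.10), Yme1l1 (-0.23) and Trap1 (-0.18), and with the row block for Lonp2 (-0.15). With single arrays left out, the difference between the STAM groups ran from -0.21 to 0.10 for Clpp, from -0.098 to 0.33 for Lonp2, from -0.34 to 0.0063 for Hspa9, from -0.30 to 0.0096 for Afg3l2, from -0.019 to 0.26 for Yme1l1 and from -0.11 to 0.21 for Trap1. The cause was not tested. No spot was saturated.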
